A study of Gallus gallus with 20 samples.

Results

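Ileal gene expression was compared between 4 broiler chickens that expressed a shared block of genes and 6 that did not. The birds were chosen by measured values, the counts of that block, and not by the labels. Each gene of the block was above 1 CPM (counts scaled to a common total per bird) in birds A4, A6, A7 and D7 and under 0.1 CPM in birds A3, A5, D2, D3, D4 and D5. The 4 birds account for 8 of the 20 libraries. All birds were 35 days old, and total RNA was taken from pieces of mid-ileum, so that every value is an average over the cell types of the gut wall. Birds with names in A form the Control group and those with names in D the Avilamycin group, a feed group named for avilamycin, an antibiotic directed at Gram-positive bacteria. The sources used here give neither the dose, nor how long it was fed, nor the sex of the birds.

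The division is of the kind that sex makes in birds. Hens carry a Z and a W chromosome, and cocks carry a pair of Z chromosomes. Genes of the W are transcribed in hens alone. In chicken the dosage of the Z is only partly compensated, so that many Z-linked genes are transcribed at a higher level in cocks than in hens. Hens and cocks are nevertheless a putative reading here: 0 of 24356 gene IDs could be matched to a symbol or a chromosome, and no defining gene of either sex could be checked. The birds are therefore called the 4 birds with the block and the 6 without it.

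The feed groups were unevenly divided, with the block in 3 of 5 control birds and in 1 of 5 avilamycin birds (Fisher's exact test, two-sided, p = 0.524). For this reason feed group was kept in the model of the main comparison of the 4 and the 6 birds. The permutation tests, the counts of separated genes and the distances to the mean of a set do not adjust for feed. Total counts were 40950500 ± 4465190 in the 4 birds (SD, n = 4) and 38952000 ± 4641480 in the 6 (SD, n = 6). The difference of 1998520 was smaller than either SD, and a two-sided exact permutation test of the difference of the means gave p = 0.529. Genes with at least 1 count numbered 18992 ± 93.5 and 18935 ± 102 (SD). Here too the difference, 56.8, was smaller than either SD, and the same test of the means gave p = 0.4 (two-sided exact permutation test).

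The block was near to an on and off pattern, and 19 genes met the limits. These values chose the birds, so they are given as a description without a test. The summed level of the 19 genes was 170 CPM in A4, 155 CPM in A6, 158 CPM in A7 and 163 CPM in D7. In the other birds it was 0.193 CPM in A3, 0.235 CPM in A5, 0.659 CPM in D2, 0.453 CPM in D3, 0.289 CPM in D4 and 0.228 CPM in D5. The lowest level of any of the 19 genes in the 4 birds was 1.10 CPM and the highest in the 6 birds was 0.0790 CPM, both just inside the limits. A further 15 genes fell outside them, with a highest level in the 6 birds from 0.104 CPM, just past the limit, to 1.03 CPM, and a median of 0.215 CPM. These were more abundant than the 19, with means of 16.6 to 274 CPM in the 4 birds against 1.34 to 32.5 CPM.

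The 15 further genes had log2 fold differences of 7.67 to 9.16 between the 4 and the 6 birds. No gene tested lay between 2.5 and 7.5, so a limit of 4, set after these values were seen, parts on and off genes from graded ones. A small remainder of their counts in the 6 birds put them past the limit of 0.1 CPM. The count of 15 holds for genes with a mean of at least 0.5 CPM over the 10 birds. Called genes over the limit of 4 numbered 23 with no filter and 4 with edgeR's own filter by feed group. The on and off genes of at least 10 CPM in the 4 birds also numbered 19, but were the 15 and only a few of the block. Among these the mean of the 6 birds was 0.152% to 0.460% of the mean of the 4. The 15 taken with the 19 of the block make 34 genes that mark the same birds. Their summed level was 1239 CPM in A4, 1194 CPM in A6, 1171 CPM in A7 and 1202 CPM in D7. The levels were even among the 4 birds, with a median coefficient of variation of 7.76% over the 34 genes. No gene had the opposite pattern, above 1 CPM in all 6 birds and under 0.1 CPM in all 4.

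**Figure D1:**
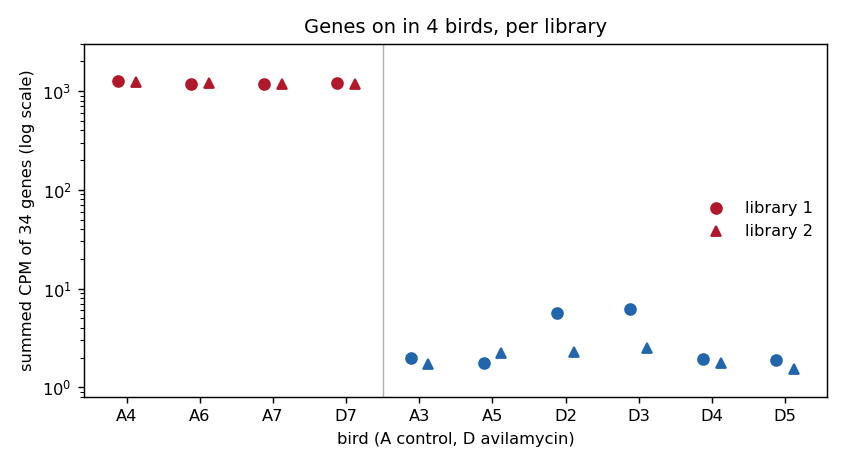
Summed level of the 34 on and off genes in CPM, on a log scale, for each bird; circles are the first and triangles the second technical library. The 4 birds with the block (red) lie between 1167 and 1252 CPM in both libraries, and the 6 without it (blue) between 1.53 and 6.25 CPM, with the first libraries of D2 and D3 highest among them.

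Of the 15 genes, 2 had the smallest p of all genes higher in the 4 birds. ENSGALG00000035780 was at 16.8 CPM in A4, 16.8 CPM in A6, 17.6 CPM in A7 and 18.9 CPM in D7, from 618 to 839 counts, and at 0 to 4 counts in the 6 birds. ENSGALG00000030382 was at 23.4 CPM in A4, 18.6 CPM in A6, 21.2 CPM in A7 and 21.0 CPM in D7, and at 0 to 6 counts in the 6 birds. Both repeat the pattern that chose the birds and are no separate evidence of it.

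Beyond the block, the 4 birds differed from the 6 mostly by lower levels. Of 14543 genes tested, without the 19 of the block, 299 (2.06%) were lower in the 4 birds and 27 (0.186%) higher (edgeR's quasi-likelihood test, feed group in the model, adjusted p under 0.05). The 27 comprise the 15 on and off genes and 12 graded ones. The birds were divided from these same libraries, so the calls describe how these 4 and 6 birds differ. The median log2 fold difference of all genes tested was 0.00. In pieces of whole tissue, fewer cells of a type and less RNA per cell cannot be told apart.

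Most of the reductions were moderate and of similar size, which the threshold shapes in part. Among the 299 genes the median difference was -0.69 on the log2 scale, a 1.61-fold lower level, and the middle 50% of genes lay between 1.46-fold and 1.76-fold. Genes between 1.5-fold and 2-fold lower made up 188 of the 299, or 62.9%, and 94 were less than 1.5-fold lower. Only 17 genes were 2-fold lower or more, 14 of them by less than 2.5-fold and 3 by more, up to 3.13-fold. The median standard error of a log2 difference was 0.08 among the 299, against 0.13 over all genes tested, and choice by p favours small errors.

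ENSGALG00000008229 had the smallest p of the lower genes. Its level was 33.5 CPM in A4, 35.5 CPM in A6, 28.8 CPM in A7 and 30.9 CPM in D7. In the 6 birds it was 87.4 CPM in A3, 86.6 CPM in A5, 77.2 CPM in D2, 79.2 CPM in D3, 72.7 CPM in D4 and 76.9 CPM in D5. The sets lay far apart, and all 4 birds were below every bird of the 6. The log2 fold difference was -1.37 ± 0.07 (SE; edgeR adjusted p = 2.64e-06), a 2.59-fold lower level, among the 3 strongest reductions of the 299.

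ENSGALG00000015071 was nearer to the typical size. Its level was 46.7 CPM in A4, 45.9 CPM in A6, 50.5 CPM in A7 and 48.3 CPM in D7, with a mean of 47.8 ± 2.01 CPM (SD, n = 4). It was 86.7 CPM in A3, 92.2 CPM in A5, 89.1 CPM in D2, 88.3 CPM in D3, 85.0 CPM in D4 and 93.3 CPM in D5, with a mean of 89.1 ± 3.18 CPM (SD, n = 6). Each set was tight and the gap between them was many times its spread. The log2 fold difference was -0.90 ± 0.06 (SE; edgeR adjusted p = 1.46e-05), a 1.86-fold lower level.

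**Figure D2:**
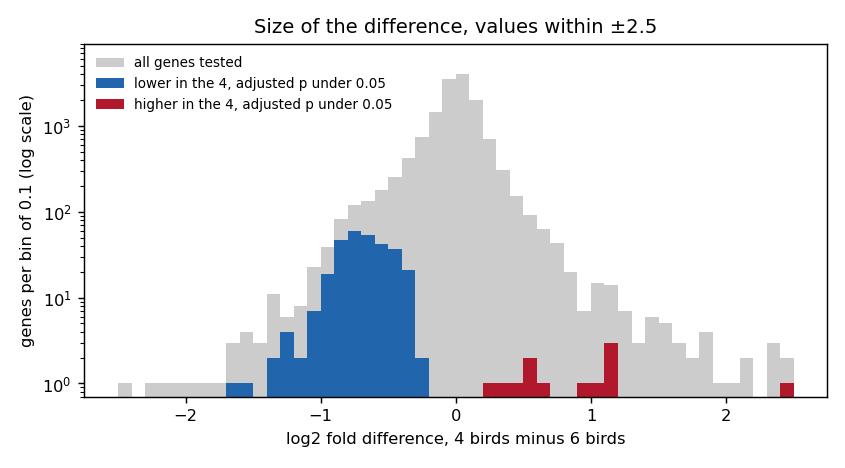
Number of genes per bin of 0.1, on a log scale, against the log2 fold difference between the 4 and the 6 birds, for values within ±2.5; grey bars are all genes tested, coloured bars those with an adjusted p under 0.05. The 299 lower genes form a broad peak around -0.69, while the 12 graded higher genes are scattered between 0.25 and 2.41.

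Genes were also counted over the whole table by size alone, with the 299 lower genes included. Genes were parted by mean level into 3 classes. In the class with the highest levels (from 36.9 CPM, 4848 genes), 84 genes had values between 1.5-fold and 2.5-fold lower in the 4 birds and 17 had values higher by as much. In the middle class (from 8.34 CPM, 4847 genes) 122 lay lower and 17 higher by that size. In the lowest class, where the median standard error was 0.24, 237 lay lower and 155 higher. Of the genes lower by that size, 72 in the highest, 99 in the middle and 31 in the lowest class were among the 299. Of those higher, 0, 1 and 5 passed the threshold. In the highest and middle classes the imbalance is thus mostly that of the called genes and no separate support for it. Lower genes past the threshold made up 2.72%, 2.66% and 0.784% of these classes, from the highest to the lowest level. In the same order their median reduction was 1.52-fold, 1.64-fold and 1.76-fold, and the median standard error of the class was 0.08, 0.11 and 0.24. Small differences pass the threshold less easily where errors are large.

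All 4 birds lay below all 6 for 428 genes (2.94% of those tested) and above all 6 for 102 (0.701%). The 102 include the 15 on and off genes, which repeat the pattern that chose the birds. Of the 299 lower genes, 295 were separated in this way, which their choice by p favours. Among the 14217 genes that did not pass the threshold, 133 were separated with the 4 birds below and 78 with the 4 birds above. How many genes another division of the birds would separate was not computed, so these counts are a description only.

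The lower genes together took a visible share of the counts. Their summed level was 12019.7 CPM in A4, 11735 CPM in A6, 11766 CPM in A7 and 12171 CPM in D7. In the 6 birds it was 18190 CPM in A3, 18616 CPM in A5, 18833 CPM in D2, 18138 CPM in D3, 17896 CPM in D4 and 18146 CPM in D5. The sets did not overlap, which the choice of the genes in these birds fixes, and within each the values differed little. The bird with the lowest level of all 10 was A4 for 61 of the 299 genes, A6 for 99, A7 for 87 and D7 for 52.

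**Figure D3:**
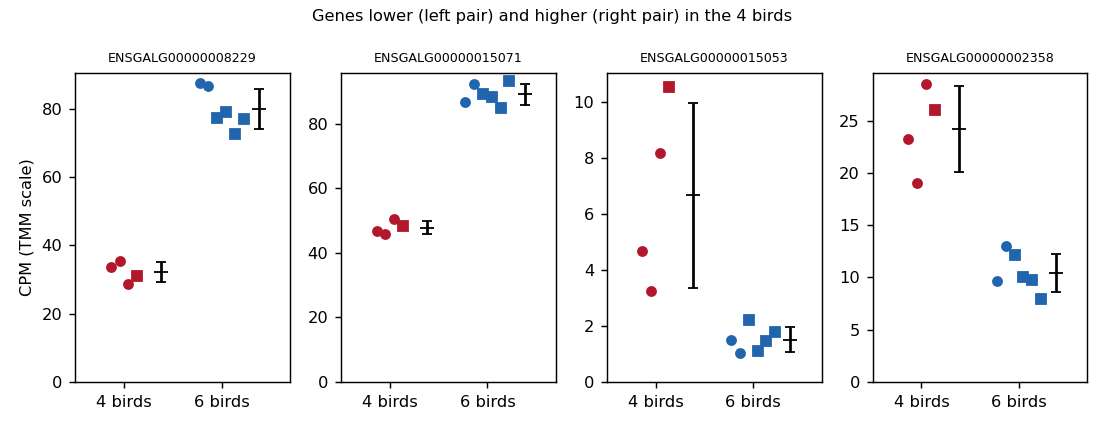
Level in CPM on the TMM scale of ENSGALG00000008229, ENSGALG00000015071, ENSGALG00000015053 and ENSGALG00000002358 in the 4 birds with the block (red) and the 6 without it (blue); circles are control and squares avilamycin birds, and black bars give the mean ± SD. The sets do not overlap for any of these genes, and relative to its mean ENSGALG00000015053 varies most among the 4 birds.

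Genes of graded increase numbered 12 in edgeR and 11 in limma voom of summed birds, against 47 in DESeq2 and 48 in a voom fit of single libraries. The 12 were higher by a median of 1.75-fold, from 1.19-fold to 5.33-fold. The sets were separated for 9 of them, which their choice by p favours. Over all genes tested, all 4 birds lay above all 6 for 0.701%. The 2 with the smallest p were named after their values were seen. ENSGALG00000015053 was at 4.68 CPM in A4, 3.26 CPM in A6, 8.17 CPM in A7 and 10.6 CPM in D7, and from 1.03 to 2.23 CPM in the 6 birds. Its log2 fold difference was 2.41 ± 0.30 (SE; edgeR adjusted p = 0.00116). ENSGALG00000002358 was at 23.2 CPM in A4, 19.0 CPM in A6, 28.5 CPM in A7 and 26.0 CPM in D7, and from 7.98 to 13.0 CPM in the 6 birds, a log2 fold difference of 1.19 ± 0.16 (SE; edgeR adjusted p = 0.00194). Bird D7 had the highest level of all 10 birds for 9 of the 12 genes, and the share over all genes is not given. The number of graded higher genes was 20 without A6 and 7 without D5. Without D7 it fell to 3, and both named genes missed the threshold (edgeR adjusted p = 0.0704 for ENSGALG00000015053 and 0.0625 for ENSGALG00000002358). The contrast then rested on control birds alone, A4, A6 and A7 against A3 and A5.

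Genes chosen in control birds alone were read in avilamycin birds, which had no part in the choice. The control birds with the block also shared a difference between technical libraries, described below, and A3 and A5 lay outside that set. Among control birds, 83 of 14534 genes (0.571%) were lower in A4, A6 and A7 than in A3 and A5 (edgeR adjusted p under 0.05). For 81 of the 83, or 97.6%, avilamycin bird D7 was below D2, D3, D4 and D5, whereas D7 was below these 4 birds for 19.4% of all genes tested. The median difference at the 83 genes was -0.73 on the log2 scale, and 0.00 over all genes. All 83 had lower values in D7 than the mean of the other avilamycin birds. The 2 graded genes higher in control birds had a median of -0.21 in D7. The reverse choice gave little to read: with D7 as the lone bird, assumed to vary like the others, 4 of 14501 genes (0.0276%) were lower, and for 2 of these the 3 control birds with the block were below both others (12.8% of all genes).

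**Figure D4:**
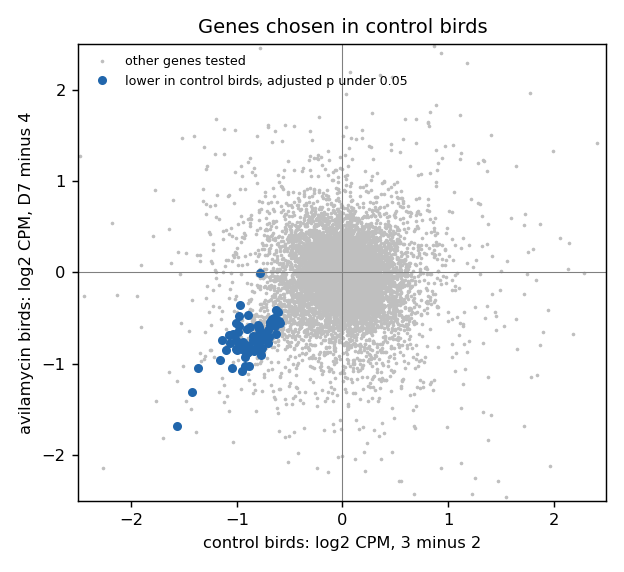
Each point is a gene, with the log2 difference between the 3 control birds with the block and the 2 without it on the x axis, and the log2 difference between D7 and the 4 other avilamycin birds on the y axis; points outside ±2.5 are not drawn, among them ENSGALG00000006354, a gene chosen in control birds. The genes chosen in control birds (blue) lie below 0 on the y axis, with a median of -0.73 over all 83, while the other genes scatter around 0.

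The size of the reduction was similar in both feed groups. For the 299 genes the median log2 fold difference was -0.71 in control birds and -0.63 in avilamycin birds, and all 299 were below 0 in both, although these birds also served to choose them. It was -1.42 and -1.31 for ENSGALG00000008229, and -0.91 and -0.88 for ENSGALG00000015071. A term for a difference between feed groups in the contrast of the block passed the threshold for 0 of 14543 genes (0%) in edgeR's quasi-likelihood test, and for 0 in limma voom. Genes at an unadjusted p under 0.05 for this term numbered 755 (5.19%) in edgeR and 735 in voom. Of the 299 lower genes 8 had such a p, and the middle 50% of their terms lay between -0.05 and 0.16 on the log2 scale. With 1 avilamycin bird that had the block, small differences between feed groups were not detectable. The count was 2 without A3, 3 without A4, 1 without D2 and 1 without D5.

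Each bird was also placed by genes chosen without it. With a bird left out, 230 to 290 genes were lower in the remaining birds with the block. Without D7 no avilamycin bird had the block, so the contrast rested on A4, A6 and A7 against A3 and A5. The placement of D7 thus repeats the reading of control-bird genes in D7 above, and is no separate check. Left-out birds with the block had median log2 differences from the birds without it of -0.67 in A4, -0.69 in A6, -0.71 in A7 and -0.66 in D7. Left-out birds without the block had medians of -0.02 in A3, 0.01 in A5, 0.04 in D2, -0.02 in D3, -0.04 in D4 and -0.02 in D5. All 10 birds thus lay with their own set.

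Gene by gene the placement was nearly as clear. A bird was nearer to the mean of its own set than to that of the other at 92.2% (D7) to 100% (D5) of the genes chosen without it. Over all genes tested the same share was 38.4% for D7 and 59.3% for D5, the lowest and the highest of the 10 birds. When genes were chosen in the first libraries and read in the second library of the left-out bird, the shares ran from 92.6% to 98.7%, and from 91.5% to 99.5% in the reverse order.

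**Figure D5:**
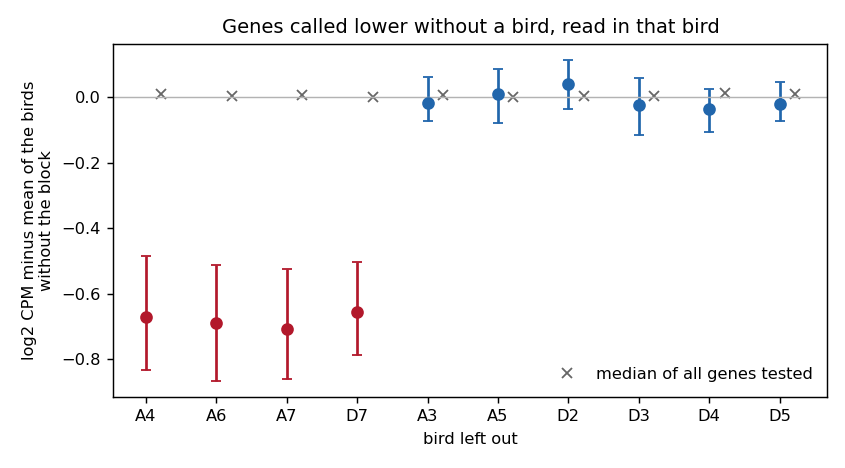
For each bird, the median (point) and the middle 50% (bar) of its log2 CPM minus the mean of the birds without the block, at the genes called lower in a fit that left the bird out; crosses give the median over all genes tested. The 4 birds with the block (red) lie between -0.71 and -0.66 and the 6 without it (blue) between -0.04 and 0.04.

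Both technical libraries showed the reductions. In the first libraries alone 264 genes were lower in the 4 birds and in the second 258, of which 226 were shared, or 85.6% and 87.6% of these lists. The birds are the same in both, so this measures technical repeatability. The 4 birds all belong to a set of 6 (with D2 and D3) whose second and first libraries differed in a shared way. Pairwise correlations of these differences were 0.218 to 0.475 across 9233 genes, against -0.187 to 0.113 for other pairs of birds. A3, A5, D4 and D5 lie outside the set. Among control birds the block and this set therefore coincide, and the choice of genes in control birds alone cannot tell them apart. Within this set every control bird had the block. Calls at the threshold are not interpreted for this set, and only their total is given below with the other alternatives. With feed group in the model, the contrast in this set rested on D7 alone against D2 and D3. The 298 of the 299 lower genes tested there had a median log2 fold difference of -0.65, and all were below 0, but these birds also served to choose them, which favours that sign and size. There ENSGALG00000008229 was at -1.34 and ENSGALG00000015071 at -0.88 on the log2 scale. The graded higher genes named above were at 2.67 (ENSGALG00000015053) and 1.235 (ENSGALG00000002358). All of these are differences of a single bird with the block. D2 and D3 were placed with the birds without the block at 96.9% of the genes chosen without them.

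With the block in the model, 2 genes differed between feed groups (0.0138%; edgeR adjusted p = 0.0231 for both), both lower in avilamycin birds. ENSGALG00000031164 had a mean of 21.4 ± 7.49 CPM over control birds (SD, n = 5) and of 4.74 ± 1.72 CPM over avilamycin birds (SD, n = 5). Its log2 fold difference was -2.44 ± 0.26 (SE). ENSGALG00000050921 was at 2.45 to 3.16 CPM in A4, A5, A6 and A7, at 0.0637 CPM in A3 and at 0 to 0.0971 CPM in avilamycin birds. In edgeR no other gene passed, while 1387 (9.54%) had an unadjusted p under 0.05. Limma voom called 0 genes (1371 at such a p), and DESeq2 called 118, of which 75 were higher and 43 lower in avilamycin birds. The edgeR count of 2 fell to 0 without A7, D2, D5 or D7 and to 1 without A3, A4 or A5.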

How the data were processed

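The authors deposited raw read counts per Ensembl gene ID for 20 libraries, 2 technical libraries from each of 10 birds. The tools listed in the submitters' processing notes, without roles, are DESeq2, HTSeq 0.6.1, SAMtools 1.7, STAR and Trimmomatic 0.36. The notes also list a genome build that differs from the one in the name of the table, so no coordinates are printed. No source used here says whether reads were counted by strand, so overlapping genes, antisense genes and near-identical copies are uncertain, copies shared by sex chromosomes among them. The reference gene table (25635 genes, assembly GRCg7b) matched 0 IDs, so gene lists and markers were not used.

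Counts were summed per bird (31130907 to 45371754; libraries 14079936 to 26708365). Genes with a mean of at least 0.5 CPM over the 10 birds were kept, the 19 of the block left out. Under TMM scaling, edgeR 4.0.16 (R 4.3.3) tested terms for feed and block by quasi-likelihood; p was adjusted after Benjamini and Hochberg over all genes and called under 0.05. Standard errors were derived from the F statistic. Gene levels are CPM on the TMM scale, those of the block CPM of total counts. Bird-wise log2 CPM used a prior count of 2. The fit was also run on simulated counts. Those were drawn independently, without shared differences between libraries or birds, so they cannot vouch for the calls in these birds. Alternatives included DESeq2 1.42.0, limma 3.58.1 voom, other filters and omission of birds. Genes are named as the 2 with the smallest p in each direction, with exceptions stated. Birds and tests were chosen with earlier results of these data known.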

Additional observations from a re-analysis of the deposited data

Results flagged for a closer look

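In 28 sets of birds examined, 3 levels stood apart from the rest of their set, where chance gives about 1 in 20 for normally distributed values. Both flagged levels in D3 are near 0 CPM, where that rate need not hold. The level of ENSGALG00000030382, an on and off gene, was 0.146 CPM in D3, against 0.0259 CPM in the next highest of the 6 birds without the block, at 0 to 6 counts per bird. ENSGALG00000050921 was at 0.0637 CPM in control bird A3, far below the next control bird at 2.45 CPM. The same gene was at 0.0971 CPM in avilamycin bird D3, against 0.0259 CPM in the next avilamycin bird.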

How the results depend on the processing

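The count of 326 genes that differed between the 4 and the 6 birds was 283 to 460 under other scalings, filters, tools, terms and technical libraries, and 248 to 316 with a bird left out. It was 102 in control birds alone, 23 in avilamycin birds alone and 18 in the 6 birds with a shared library difference, all smaller designs. The bird number as a replicate block gave 16, all of them on and off genes, and it leaves number 4 alone to inform the contrast. Correlations of deviations between birds of the same number were -0.333 to 0.054. These cannot decide whether numbers pair the birds. Deviations sum to 0 within a set, which draws the correlations down, and those of birds with unlike numbers are not given. The technical number as a replicate block gave 420 in voom of single libraries, with a single correlation of 0.640 for all genes. The 12 graded higher genes became 47 in DESeq2 and 48 in that voom fit, but 11 in voom of summed birds and 7 among genes with a mean of at least 10 CPM. All 6 named genes of the contrast kept their direction under each alternative that gave a value, but not all stayed past the threshold. ENSGALG00000035780 and ENSGALG00000030382 passed it in all 25 alternatives. ENSGALG00000008229 passed in 26 of 28 and ENSGALG00000015071 in 25 of 28, with misses only where D7 alone or number 4 alone informed the contrast. ENSGALG00000015053 passed in 23 of 27 and ENSGALG00000002358 in 23 of 28. Both also missed it in control birds alone and without D7. The term for a difference between feed groups gave 0 to 3 genes with a bird left out, and could not be estimated without D7. The feed difference gave 0 genes in voom, 118 in DESeq2 and 0 to 3 with a bird left out. The cause was not tested for any of these. The 2 alternatives that left out the 15 further genes or the first libraries of D2 and D3 were chosen after seeing the data and gave 308 and 329. The block held 15 to 25 genes under other limits or in single libraries.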

Other observations

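The remainder of counts of the 34 on and off genes in the 6 birds was uneven between libraries. In D2 the first library held 120 counts and the second 38, or 0.468% and 0.190% of the mean level of the 4 birds. In D3 it was 149 and 45 counts, or 0.517% and 0.208%. In A3, A5, D4 and D5 the first libraries held 28 to 41 counts and the second 29 to 42, between 0.128% and 0.187% of that level. These values were noticed after the data were seen, and their cause was not tested.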
